A study of Mus musculus with 13 samples.

Results

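The recovery of 52 RNAs with an antibody against P23 was compared with their level in the starting extract (input) of RAW 264.7 cells, a mouse macrophage line, before and after treatment with lipopolysaccharide (LPS). All 52 RNAs of the deposited selection table were taken, and 8 of the 13 libraries carried the comparison, namely 3 P23 immunoprecipitations (IPs) and 1 input of untreated cells (0 h) and 3 P23 IPs and 1 input of cells that had received LPS at 10 ng/ml (2 h). The remaining 5 libraries were IPs with an antibody against luciferase (LUC), a protein that these cells lack, with 3 libraries at 0 h and 2 at 2 h. They are given as the background of the procedure. All libraries came from cytoplasmic extract of UV-crosslinked cells, the inputs being its total RNA, and the IP groups differed in antibody and in LPS. The third LUC library of 2 h had been removed by the authors as an outlier. All values come from 1 cultured cell line, and with 1 input library at each time the input carried no replicate error of its own.

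P23, encoded by Ptges3, is a co-chaperone of HSP90 that also has prostaglandin E synthase activity, and it was found among proteins that crosslink to polyadenylated RNA in macrophages. In RNA immunoprecipitation a protein is pulled down with the RNA bound to it. A ratio over input relates the recovery of an RNA to its abundance, whereas a control antibody shows how much RNA is retained without the protein. LPS is sensed by TLR4 and switches on inflammatory transcription.

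The study had selected the 52 RNAs as higher with P23 than with LUC at 0 h on these same libraries. The P23 values of 0 h were therefore favoured by the choice, RNAs outside the table were not analysed here, and the ratios over input describe how the selected RNAs differ among themselves. Counts summed over the 52 RNAs were between 6265 and 11866 in the P23 IPs, between 3751 and 7186 in the LUC IPs, and 24335 and 25437 in the inputs. These sums are not library sizes. A normalized count is a count divided by the size factor of its library, which was read from the deposited variance-stabilized values and lay between 0.461 and 1.02 in the IPs and at 6.10 and 5.65 in the inputs. Replicates 2 and 3 of the P23 IPs did not differ beyond sampling noise, both at 0 h (chi-square over the RNAs divided by its degrees of freedom 1.06, p = 0.366) and at 2 h (1.05, p = 0.374), whereas replicate 1 differed from each of them (from 1.87 to 5.55). They were counted as 1 sample, so that P23 values have n = 2 at each time. The study describes them as independent replicates. Of the macrophage markers considered, Tnfrsf11a and Cd101 were detected in both inputs.

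The 3′ untranslated regions (3′UTRs) of several RNAs with a high ratio held long runs of U and G. A U/G-only hexamer is a stretch of 6 bases with no A or C, searched on the transcript strand with overlapping matches counted. Of each 3′UTR, the 30 nt window with the most such hexamers is shown for 3 RNAs recovered well over their input and for Kif1b, followed by that of Gapdh, which had a low ratio. Sequences are from RefSeq transcripts of GRCm38.p6, written with T for U, with capitals for the bases that lie in a U/G-only hexamer.
Tnfrsf11a: TGGTTTTGGTTTTGTTTcaTTTTTTGTTTT
B4galt5: GGGGTTTTTGTTTGTTTGGGTTTTTTTGTT
Kif15: tattttaTTTTTTTTTTTTTTGGTTTTTTG
Kif1b: ccaGGGGGGTGTGGTTTGTTTagcGTGGGT
Gapdh: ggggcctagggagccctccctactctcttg
The windows lie at chr1:105845352-105845381 (+ strand), chr2:167300869-167300898 (- strand), chr9:123018411-123018440 (+ strand), chr4:149177321-149177350 (- strand) and chr6:125161882-125161911 (- strand). In B4galt5 each of the 25 hexamers of the window consisted of U and G, in Tnfrsf11a and Kif15 18, in Kif1b 14 and in Gapdh 0. The windows shown are examples and do not sort all RNAs by their ratio. That of Bola3, the lowest at 0 h, held 12, as did that of Dlg4 with a log2 ratio of 3.08. Meaf6, at only 0.81, held 25, as many as B4galt5. Of 19262 RefSeq genes with a 3′UTR of at least 36 nt, 94.3% held at least 1 U/G-only hexamer and 13.6% a window with 18 or more, the number found in Kif15. Among the 44 mRNAs of the table with a RefSeq 3′UTR these were 42 and 15 (34.1%). A match describes the letters and is no binding site.

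At 0 h, 42 of the 52 RNAs were higher with P23 than in the input and none was lower, and the median log2 ratio was 1.37, a fold of 2.58. Over all RNAs tested this is 80.8% called higher and 0.0% called lower (edgeR's quasi-likelihood test, Benjamini-Hochberg adjustment, called at 0.05 or less, and 42 and 0 also at an unadjusted p under 0.05). Both DESeq2 and limma called 39 higher and 0 lower. The LUC antibody gave a part of the same picture, with 21 RNAs higher (40.4%), 4 lower (7.69%) and a median of 0.57. This direction depends on the scale between IP and input. With each library set to the same median over the 52 RNAs, 24 were higher and 11 lower with P23. With TMM scaling over the same RNAs these were 17 and 20, and with all libraries taken as equally deep 1 and 30. These scales moved every log2 ratio of 0 h by -1.04, -1.43 and -2.75. The equal median and TMM rest on the selected RNAs alone, and so take out a shift that most of them share. A change of scale adds nearly the same amount to every log2 ratio of a comparison. By construction, the position of an RNA relative to the median of the table hardly moved. None of 309 positions changed sign, which is no test of the order. Since the direction rests on the scale, the ratios are given as an order among the 52 RNAs.

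The ratios spread widely among RNAs. The log2 ratio at 0 h ranged from -0.24 to 5.48, the latter for Gm15559 with 1 count in the input. The interquartile range was 1.78 and the SD among RNAs 1.24. Replicate 1 and the mean of replicates 2 and 3 differed by 0.27 (median absolute difference). That is another measure, and it holds no error of the input, which the replicates share and which adds to the spread among RNAs. A group of 9 RNAs, Gm15559 included, was among the 10 highest in each of the 3 P23 libraries of 0 h. In each, 7 were among the 10 lowest.

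**Figure D1:**
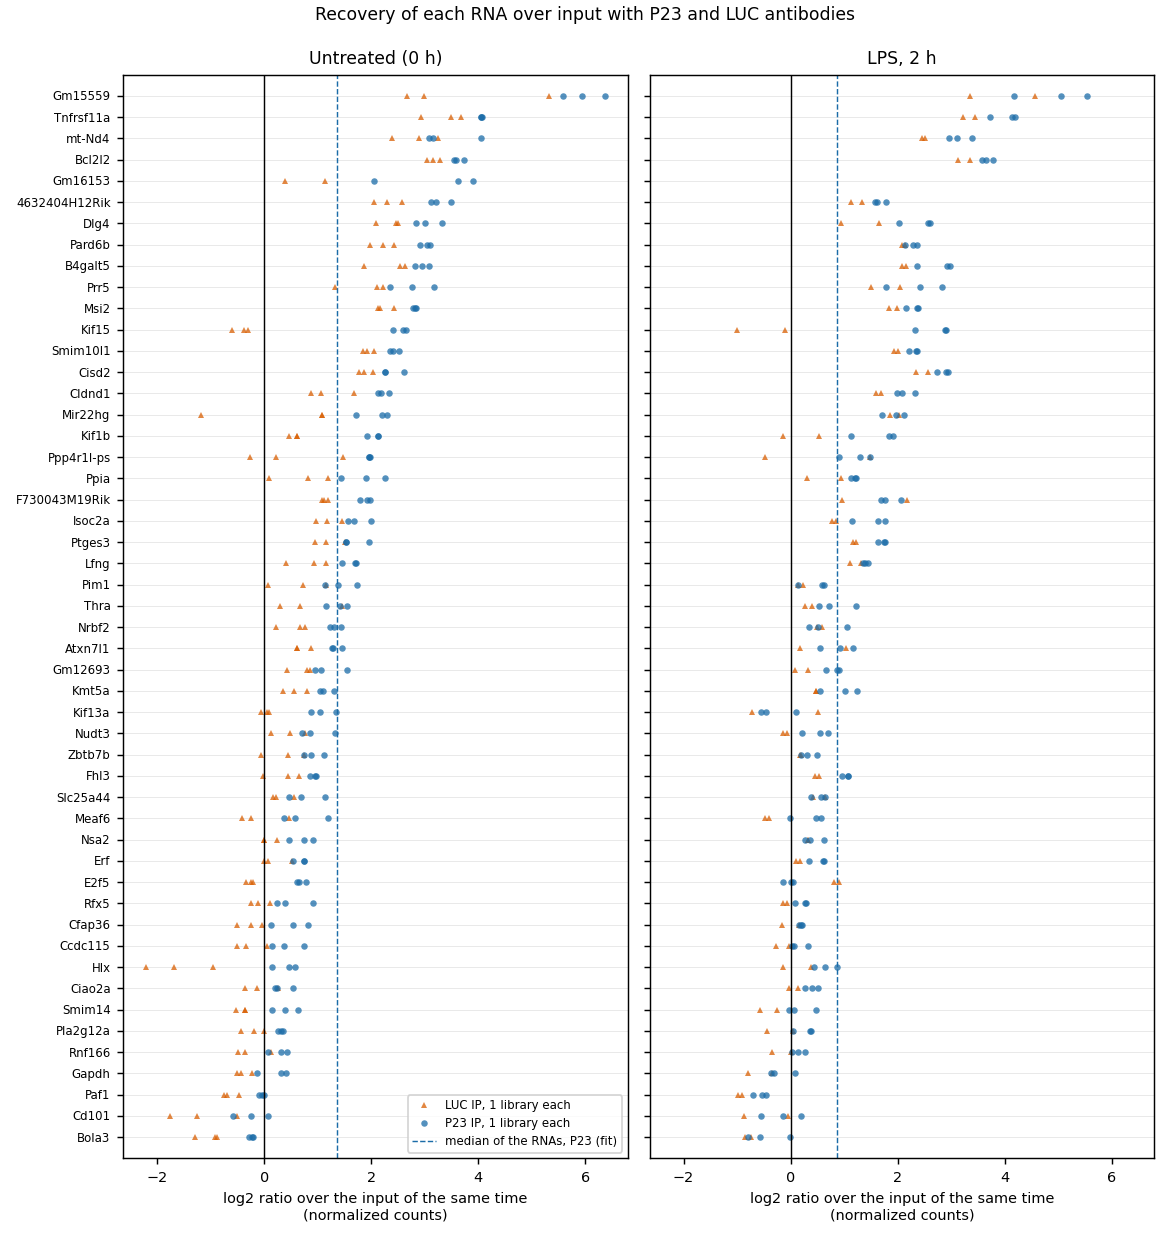
Log2 ratio of each P23 IP library (circles) and each LUC IP library (triangles) over the input of the same time, for 50 of the 52 RNAs in the order of the fitted P23 ratio at 0 h (left, untreated; right, 2 h LPS). Libraries with 0 counts are not drawn, the dashed line marks the P23 median (1.37 and 0.86), and Kif15 stands out by the distance between its circles and triangles.

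Tnfrsf11a, which encodes RANK, the receptor that drives osteoclast formation from macrophage precursors, had the highest ratio among the RNAs with 10 or more counts in both inputs. Its normalized counts were 1370, 1356 and 1353 in the P23 IPs of 0 h against 81.5 in the input, and 916, 624 and 1037 with LUC. On this scale all P23 libraries lay above all LUC libraries, which the selection of the RNAs favoured. The lowest LUC library was still several times above the input. The log2 ratio was 4.06 (standard error 0.52, adjusted p = 6.67e-07, edgeR) with P23 and 3.40 with LUC. At 2 h the normalized counts were 1147, 1576 and 1526 with P23, 808 and 940 with LUC and 86.9 in the input, and the log2 ratios of 3.96 and 3.33 were close to those of 0 h.

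High ratios over input with both antibodies were also seen for Bcl2l2, mt-Nd4, B4galt5, Dlg4 and Pard6b. Bcl2l2, which encodes the anti-apoptotic protein BCL-W, had 213, 188 and 192 normalized counts with P23 at 0 h, 156, 132 and 143 with LUC and 16.1 in the input. Its log2 ratio was 3.64 with P23 and 3.15 with LUC at 0 h, and 3.65 and 3.24 at 2 h. A predicted gene on the same strand overlaps it, so its reads may be shared. For mt-Nd4, a mitochondrially encoded subunit of respiratory complex I that overlaps mt-Nd4l, replicate 1 with 1180 normalized counts stood above replicates 2 and 3 with 603 and 632, and the input was at 71.3. The log2 ratios were 3.65 with P23 and 2.87 with LUC. B4galt5, a galactosyltransferase of glycolipid synthesis, had a log2 ratio of 2.98 with P23 at 0 h and of 2.38 with LUC. Dlg4, the scaffold protein PSD-95, and Pard6b, a cell polarity protein, were at 3.08 and 3.01 with P23 and at 2.35 and 2.25 with LUC.

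Kif15 differed from these RNAs, since it was high with P23 and not with LUC. Kif15 encodes a kinesin motor of the mitotic spindle (GRCm38 chromosome 9, 122951046 to 123018733, with a predicted gene on the same strand within its span). Its normalized counts were 1266, 1497 and 1437 with P23 at 0 h, 238 in the input and 185, 194 and 158 with LUC. The LUC libraries lay below the input and every P23 library was above it. The log2 ratio over input was 2.52 with P23 (standard error 0.43, adjusted p = 2.52e-05, edgeR) and -0.42 with LUC (adjusted p = 0.343, edgeR). Its rank among the 52 RNAs was 13 with P23 and 48 with LUC. At 2 h the normalized counts of 1174, 1759 and 1746 with P23, 236 in the input and 219 and 118 with LUC gave log2 ratios of 2.64 (adjusted p = 2.2e-05, edgeR) and -0.50 (adjusted p = 0.339, edgeR). The difference between both antibodies at 0 h is the contrast on which the RNAs were selected and is given as a description.

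The share of an RNA in the counts of the table does not use the size factors. Kif15 took 9.48%, 13.1% and 12.3% of the counts in the P23 IPs of 0 h and between 11.8% and 14.1% in those of 2 h, against 5.97% and 5.24% in the inputs. In the LUC IPs it took from 1.58% to 3.24%. The exact 95% intervals (Clopper-Pearson, counting error only) were 8.91% to 10.1% for the lowest P23 library and 5.68% to 6.28% for the input of 0 h, so that they did not overlap. Tnfrsf11a had a larger share with both antibodies, 2.04% in the input against between 10.3% and 11.8% with P23 and between 10.4% and 13.9% with LUC at 0 h. Paf1 took 3.48% in the input and 1.01%, 1.13% and 1.18% in the P23 IPs.

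**Figure D2:**
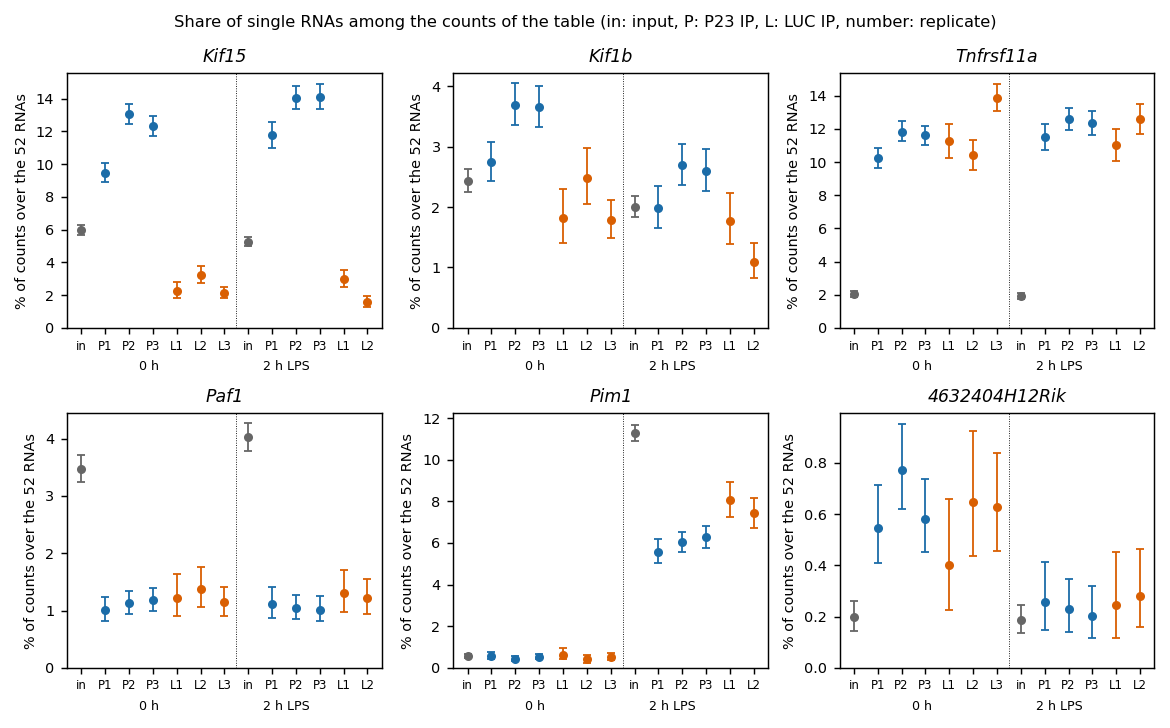
Share of 6 RNAs in the counts over the 52 RNAs, in percent, for every library (in, input; P, P23 IP; L, LUC IP; numbers are replicates), with exact 95% intervals for counting error. Kif15 lies above its input with P23 and below it with LUC, Tnfrsf11a above with both, Paf1 below with both, and Pim1 differs between the inputs of 0 h and 2 h (0.584% and 11.3%).

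The other 2 kinesin mRNAs of the table behaved differently from Kif15. Kif1b encodes a motor of anterograde vesicle transport. It had 366, 423 and 425 normalized counts with P23 at 0 h, 97.0 in the input and 148, 149 and 133 with LUC. Every P23 library was above every LUC library, which the selection favoured. The log2 ratios were 2.03 (standard error 0.30, adjusted p = 4.63e-06, edgeR) with P23 and 0.56 (adjusted p = 0.106, edgeR) with LUC. At 2 h Kif1b was at 198, 337 and 321 with P23, with a log2 ratio of 1.57 (adjusted p = 0.000103, edgeR), and replicate 1 was the lowest. Kif13a, a motor of endosomal transport, was low in every library, with 22, 41 and 34 counts with P23 at 0 h and 6, 11 and 7 at 2 h. The log2 ratio was 1.09 (adjusted p = 0.00223, edgeR) at 0 h and -0.26 (adjusted p = 0.539, edgeR) at 2 h, and with LUC it was 0.02 and -0.05. All 3 kinesin mRNAs were thus called higher over input at 0 h and 2 at 2 h, beside 80.8% and 54.9% of all RNAs tested, and with LUC none was called at either time, beside 40.4% and 37.3%.

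At the low end, 10 RNAs were not called over input at 0 h, namely Bola3, Cd101, Paf1, Gapdh, Rnf166, Pla2g12a, Smim14, Ciao2a, Hlx and Ccdc115, with log2 ratios from -0.24 to 0.51. Bola3, a factor of mitochondrial iron-sulfur cluster assembly, had 91.8, 88.6 and 93.3 normalized counts with P23, 108 in the input and 53.3 ± 8.05 (SD, n = 3) with LUC. The P23 libraries were close to each other and a little below the input, with a log2 ratio of -0.24 (adjusted p = 0.275, edgeR), and LUC was lower at -1.03 (adjusted p = 0.000235, edgeR). Cd101, an immunoglobulin family surface protein of myeloid cells, was at -0.22 with P23 and -1.21 with LUC. Paf1, a subunit of the transcription elongation complex of the same name, was at -0.05 and -0.65.

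P23's own mRNA, Ptges3, lay near the middle of the order, at rank 23 at 0 h and 17 at 2 h. It had 611, 450 and 453 normalized counts with P23 at 0 h, 157 in the input and 445, 302 and 350 with LUC. The ranges of both antibodies did not overlap, which the selection favoured. They nearly touched, since LUC replicate 1 was close to P23 replicates 2 and 3. Its log2 ratio was 1.75 (adjusted p = 5.53e-05, edgeR) with P23 and 1.21 (adjusted p = 0.00217, edgeR) with LUC. Of the mRNAs often used as references, Ppia, a prolyl isomerase, was at 1.93 with P23 and 0.71 with LUC, and Gapdh, a glycolytic enzyme, at 0.25 and -0.40. Both have pseudogene copies, and only uniquely mapped reads were counted. Reads that match a copy equally well are thus missing from their counts, and the effect on the ratios was not tested.

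Grouped by function, a broad list of receptors, kinases and signaling proteins had the highest median. It was 3.01 over 7 RNAs at 0 h against 1.37 over all 52, with 6 called higher. The 7 were Tnfrsf11a, Bcl2l2, Dlg4, Pard6b, Prr5, Pim1 and Cd101. The kinase Pim1, at 1.47, and Cd101, at -0.22, were the lowest of them, and Cd101 was not called. The same 7 had a median of 2.25 with LUC against 0.57 over all. Both glycosyltransferases, Lfng and B4galt5, were called higher at both times and with both antibodies. The 8 transcription factor mRNAs lay lower, with a median of 0.80 and 7 called at 0 h. They ranged from Hlx at 0.40 to Thra, a thyroid hormone receptor, at 1.40. With LUC their median was 0.28 against 0.57 over all. Of 4 mRNAs of chromatin and elongation factors, 3 were called higher, Atxn7l1 at 1.33, the histone methyltransferase Kmt5a at 1.19 and the acetyltransferase subunit Meaf6 at 0.81, and Paf1 was not. Msi2, an RNA-binding protein of stem cells, stood at 2.82 with P23. The other 2 mRNAs of RNA binding and processing lay well below, the hydrolase Nudt3 at 1.06 and the ribosome biogenesis factor Nsa2 at 0.75. All 3 were called with P23. With LUC Msi2 was at 2.25, Nudt3 at 0.47 and Nsa2 at 0.09, so that Msi2 stood above the others with both antibodies. Of 6 mitochondrial and iron-sulfur RNAs 4 were called, and they spanned the range from mt-Nd4 to Bola3. Of 6 membrane and vesicle mRNAs 4 were called, and the 6 ranged from Smim14 at 0.38 to Smim10l1 at 2.45. With LUC Smim14 was at -0.40 and Smim10l1 at 1.94. All 7 non-coding RNAs and pseudogene transcripts were called at 0 h, with a median of 2.08, and 3 of them with LUC. Pla2g12a, a secreted phospholipase, at 0.31, and Rnf166, at 0.29, were not called. Counts this close to 80.8% say little of any group.

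Very low counts limited 2 of the RNAs. Gm15559, antisense to Pus1, had 10, 10 and 8 counts with P23 at 0 h and 2, 6 and 4 at 2 h against 1 count in each input. The ratio was 62.1 (counting interval 10.3 to 2538) at 0 h and 33.1 (4.90 to 1416) at 2 h. Gm16153 had 3, 12 and 15 counts with P23, 1, 1 and 0 with LUC and 6 in the input at 0 h. The P23 ratio over input was 11.1 (4.54 to 32.6), and the RNA had 0 counts in all 6 libraries of 2 h, so that 51 RNAs were tested there. Without regard to strand, reads of their overlapping genes cannot be told apart from theirs.

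At 2 h of LPS, 28 of 51 RNAs were higher with P23 than in the input and 1 was lower (54.9% and 1.96%, edgeR, 30 and 1 at an unadjusted p under 0.05). The median log2 ratio was 0.86, a fold of 1.82, with an interquartile range of 1.87. With LUC 19 were higher and 2 lower (37.3% and 3.92%), with a median of 0.50. The split with P23 was 20 higher and 18 lower with an equal median, 17 and 21 with TMM and 0 and 37 at equal depth. The RNA called lower was Paf1, with 112, 131 and 125 normalized counts with P23 against 181 in the input and 95.8 and 91.2 with LUC. Its log2 ratio was -0.58 (adjusted p = 0.0193, edgeR), a call lost with DESeq2, with limma, with both inputs as 1 reference, without the LUC libraries, and without P23 2 h replicate 1 (adjusted p up to 0.104, log2 ratios from -0.58 to -0.41). It was kept on each of the other scales, at -1.47, -1.69 and -3.66. These scales moved every P23 log2 ratio of 2 h by -0.90, -1.13 and -3.05, so that keeping the call is no support for it. Without P23 2 h replicate 2, 2 RNAs were lower.

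The order of the RNAs was much the same at both times. Over the 51 RNAs tested at both times, 8 of the 10 RNAs with the highest ratio were shared between 0 h and 2 h, and 7 of the 10 lowest. Kif15 and Cisd2 entered the 10 highest at 2 h, and 4632404H12Rik and Pard6b left it. Cisd2, an iron-sulfur protein of the mitochondrial outer membrane and endoplasmic reticulum, had 561, 437 and 437 normalized counts with P23 at 0 h and 633, 727 and 709 at 2 h, against 91.6 and 95.2 in the inputs. Its log2 ratio was 2.44 and then 2.83, and with LUC 1.90 and 2.46.

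The change of the ratio between both times was tested for each RNA in the same fit. No RNA was called higher and 1 lower at 2 h (0.0% and 1.96% of 51, edgeR), and at an unadjusted p under 0.05 none was higher and 6 were lower. Neither DESeq2 nor limma called a change (0 in either direction). The median change was -0.37 on the log2 scale with P23 and -0.04 with LUC, and with P23 45 of 51 RNAs lay below 0. The RNAs had been selected as higher with P23 than with LUC at 0 h, which favoured a fall with P23 at 2 h. An effect of LPS cannot be told apart from this selection here. This shift also depends on the scale, and the median was -0.02 with TMM and -0.64 at equal depth. The RNA called was 4632404H12Rik, a long intergenic non-coding RNA (chromosome 3, 89767511 to 89773240), with 72.9, 88.6 and 67.8 normalized counts with P23 at 0 h and 25.5, 28.6 and 24.8 at 2 h. The P23 libraries of both times did not overlap, and the input was at 7.87 and 8.32. Its log2 ratio was 3.26 at 0 h and 1.65 at 2 h, a change of -1.61 (standard error 0.41, adjusted p = 0.0383, edgeR). With LUC it was at 2.35 and 1.24, a change of -1.12 (adjusted p = 0.516, edgeR). The call was lost with DESeq2 (adjusted p = 0.185), with limma (0.139), on each other scale (0.126 to 0.659), and without P23 0 h replicate 2 (0.0778), P23 2 h replicate 1 (0.109), P23 2 h replicate 3 (0.0644), LUC 0 h replicate 2 (0.0533) or LUC 0 h replicate 3 (0.0562) in edgeR.

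**Figure D3:**
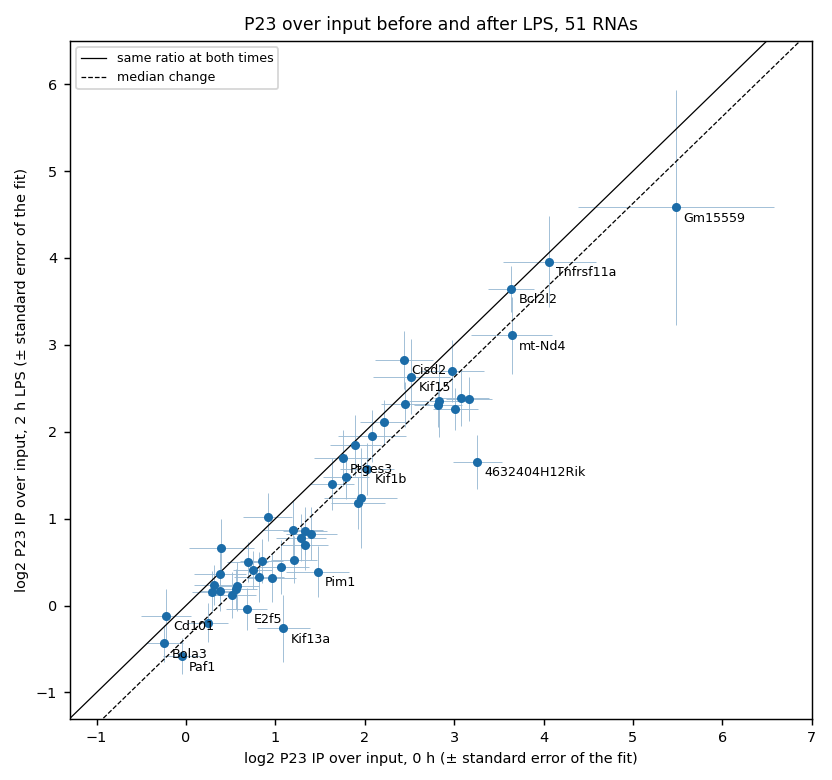
Log2 ratio of P23 IP over input at 0 h (horizontal) and at 2 h of LPS (vertical) for 51 RNAs, each with the standard error of the fit. Most points lie near the dashed line of the median change of -0.37, and 4632404H12Rik lies 1.24 below it.

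Kif13a, Pim1, Pard6b and E2f5 were among the other 5 RNAs with an unadjusted p under 0.05. Their changes were -1.35, -1.08, -0.75 and -0.72, with adjusted p from 0.248 to 0.361 (edgeR). Pim1, a serine/threonine kinase gene induced by cytokine signaling, is the RNA whose input differed most. Its input counts were 142 at 0 h and 2866 at 2 h, a 21.8-fold difference between single libraries. With P23 it was at 77.0, 51.3 and 60.9 normalized counts at 0 h and 556, 757 and 778 at 2 h, and with LUC at 52.1, 24.6 and 38.4 and then at 591 and 554. It was thus higher at 2 h than at 0 h in every library of both kinds of IP as well as in the input, and its log2 ratio with P23 was 1.47 (adjusted p = 0.000729, edgeR) at 0 h and 0.39 (adjusted p = 0.266, edgeR) at 2 h. E2f5, a cell cycle transcription factor, was at 0.68 and -0.04 with P23 but at -0.25 and 0.86 with LUC. For Kif15 the change was 0.12 (standard error 0.54, adjusted p = 0.922, edgeR), for Kif1b -0.46 (adjusted p = 0.635, edgeR), for Ptges3 -0.06, for Ppia -0.74 and for Gapdh -0.44.

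Among the 44 mRNAs with a RefSeq 3′UTR, those with more U/G-only hexamers tended to have higher ratios over input with either antibody. Spearman's rho with the number of hexamers was 0.55 for P23 and 0.55 for LUC at 0 h, and 0.48 and 0.41 at 2 h. Per 100 hexamer positions it was 0.53 and 0.50 at 0 h, and without Kif15 0.51 and 0.55. Hexamers were not compared with other features, some of which also went with the ratio. At 0 h rho of the ratio with the length of the 3′UTR was 0.38 for P23 and 0.40 for LUC, and with the input level -0.37 and -0.34. These are descriptions over mRNAs that share libraries and the same input values, with no test. Exceptions were visible in both directions. Bcl2l2 had 3.71 hexamers per 100 positions with a high ratio, and Pim1 had 9.57 with a ratio near the median. Kif15 had 6.49.

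**Figure D4:**
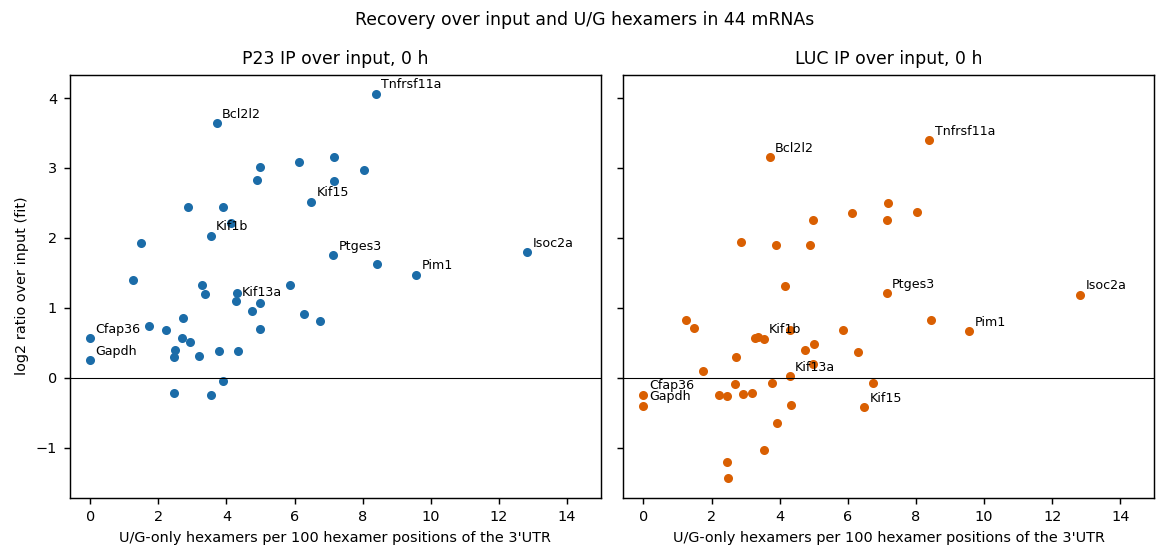
U/G-only hexamers per 100 hexamer positions of the 3′UTR (horizontal) and log2 ratio over input at 0 h (vertical) with P23 (left) and LUC (right), 1 point for each of 44 mRNAs. Gapdh lies low and Tnfrsf11a high in both panels, and Kif15 is high on the left (2.52) and below 0 on the right (-0.42).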

How the data were processed

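The libraries were P23 IPs, LUC IPs and inputs. The authors trimmed reads with Trimmomatic 0.33, checked them with FastQC 0.11.2, mapped them to GRCm38 (TopHat 2.0.14) and summed uniquely mapped reads by gene in HTSeq 0.6.1, ignoring strand, which gave the deposited raw counts. For the deposited log2 values (variance-stabilized), the authors had divided counts by 1 size factor per library, and inverting them returned these factors with a largest residual of 4.8e-14. Columns with the authors' fold changes, p-values and FDR were not used. Columns were assigned by name, and 0 were left unmapped.

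Counts were compared with edgeR 4.0.16 (R 4.3.3, quasi-likelihood, preset size factors, 6 group means, two-sided, Benjamini-Hochberg over the RNAs of the table). The plan held 13 libraries. Replicates 2 and 3 of each P23 group were merged to 11 samples (5 residual degrees of freedom) after the chi-square test and after the calls of all 13 libraries had been seen. The single inputs were assumed to vary like the IPs. Standard errors were derived from the F statistic. DESeq2 1.42.0, limma 3.58.1 on the log2 values, other scales, a minimum of 20 for the mean normalized count and omission of single IP libraries were alternatives. Equal depth was added after the data were seen, because the labels describe equimolar pools and the same minimum of reads for all libraries. The fit of P23 over input was tried on simulated counts at a dispersion of 0.02. A true log2 ratio of 0.5 or -0.5 was called in 15.5% to 23.5% of cases, and 1 or -1 in 66% to 79%. Without an effect 1.17% and 1.41% were called. The change between both times was not scored there. All 52 identifiers matched GENCODE M21, and 49 RNAs a RefSeq transcript, 44 of them mRNAs (Python 3.11.15, pandas 2.3.3, scipy 1.17.1, pysam 0.24.0). The RNAs named are Kif15, Kif1b, Kif13a, Ptges3, Gapdh, Ppia, the 8 highest and 8 lowest at each time, called changes and list members, and the RNAs with an unadjusted change. The members and lists were chosen with earlier results of these data known, and Pim1 and the changes beyond the call after their values were seen. Single values of 2 RNAs are not reported here.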

Additional observations from a re-analysis of the deposited data

Results flagged for a closer look

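The ratio of 4632404H12Rik over input with P23 differed between both times, with a change of -1.61 on the log2 scale, by edgeR's test of the difference itself (adjusted p = 0.0383). This call was lost with DESeq2 (adjusted p = 0.185), with limma (adjusted p = 0.139), on each other scale and on leaving out some single libraries. The change with LUC was -1.12, and the difference between both changes was not tested.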

How the results depend on the processing

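The scale between IP and input set the direction over input. By construction the order among RNAs hardly depended on it: over 3 scales a position relative to the median moved by 0.01 in the median and by 0.42 at most. With an equal median, TMM and equal depth, the P23 median at 0 h was 0.31, -0.078 and -1.43 and at 2 h -0.025, -0.25 and -2.22, and limma gave 0.66 at 2 h. RNAs higher with P23 at 0 h were 24, 17 and 1 and lower 11, 20 and 30. At 2 h TMM and equal depth gave 17 and 0 higher, and lower were 18, 21 and 37 over the 3 scales. With LUC lower were 15, 20 and 42 at 0 h and 11, 20 and 45 at 2 h, none was higher at equal depth, and the medians were 0.076, -0.20 and -2.50 at 0 h and 0.035, -0.17 and -2.66 at 2 h. The median change with P23 was -0.020 with TMM and -0.64 at equal depth. The 1 RNA lower at 2 h was 0 with DESeq2, limma, P23 and inputs only, and joined inputs. The 1 lower change was 0 with DESeq2, limma and each other scale. Limma called 2 RNAs lower with LUC at 0 h. Without an input in the contrast, 3 RNAs were higher and 16 lower at 2 h with P23. The cause of these shifts was not tested, except that each other scale moves all ratios by construction.

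Leaving out single IP libraries gave 39 to 43 RNAs higher with P23 at 0 h and 25 to 30 at 2 h, 0 to 2 lower at 2 h, 0 to 1 lower changes, and medians of 1.28 to 1.40, of 0.79 to 1.04 and, for the change, of -0.43 to -0.20. With LUC, 3 to 4 were lower at 0 h and 1 to 2 at 2 h, with medians of 0.48 to 0.70 and of 0.39 to 0.51. An input could not be left out, since no reference of its time would remain. With 13 libraries counted separately the counts were 42 and 0 at 0 h, 31 and 1 at 2 h, and 0 and 1 for the change. The replicate block, fitted on 13 libraries, gave the same counts (42 and 0, 31 and 1, 0 and 1). Replicate numbers were not taken to pair the samples, since not every same-numbered pair deviated together: deviations correlated at -0.15, 0.092 and -0.21 between P23 libraries of both times, and at 0.51, 0.50 and -0.27 between P23 and LUC libraries of 0 h.

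Log2 ratios of named RNAs that turned sign were as follows. With an equal median, P23 at 0 h: Ccdc115 -0.58, Ciao2a -0.70, E2f5 -0.36, Gapdh -0.83, Hlx -0.63, Meaf6 -0.27, Nsa2 -0.32, Nudt3 -0.032, Pla2g12a -0.74, Rnf166 -0.77, Smim14 -0.65. P23 at 2 h: Atxn7l1 -0.025, Ccdc115 -0.76, Ciao2a -0.52, Gm12693 -0.11, Hlx -0.24, Kmt5a -0.016, Meaf6 -0.56, Nsa2 -0.48, Nudt3 -0.45, Pim1 -0.50, Pla2g12a -0.65, Rnf166 -0.74, Smim14 -0.72, Thra -0.057. LUC: Kif13a -0.46 at 0 h, Kif1b -0.25, Pim1 -0.29 at 2 h. With TMM, P23 at 0 h: Atxn7l1 -0.11, Ccdc115 -0.96, Ciao2a -1.09, E2f5 -0.74, Gapdh -1.21, Gm12693 -0.19, Hlx -1.02, Kif13a -0.32, Kmt5a -0.27, Meaf6 -0.66, Nsa2 -0.71, Nudt3 -0.42, Pla2g12a -1.13, Rnf166 -1.16, Smim14 -1.03, Thra -0.050. P23 at 2 h: Atxn7l1 -0.25, Ccdc115 -0.97, Ciao2a -0.72, Gm12693 -0.31, Hlx -0.47, Kmt5a -0.22, Meaf6 -0.78, Nsa2 -0.70, Nudt3 -0.65, Pim1 -0.70, Pla2g12a -0.87, Rnf166 -0.96, Smim14 -0.95, Thra -0.28. LUC at 0 h: Kif1b -0.20, Kif13a -0.74, Ppia -0.051, Pim1 -0.11. LUC at 2 h: Kif1b -0.46, Pim1 -0.49. At equal depth, P23 at 0 h: Atxn7l1 -1.47, Ccdc115 -2.32, Ciao2a -2.44, Cisd2 -0.39, E2f5 -2.10, Gapdh -2.56, Gm12693 -1.55, Hlx -2.35, Kif13a -1.69, Kif15 -0.27, Kif1b -0.76, Kmt5a -1.63, Lfng -1.16, Meaf6 -1.99, Nsa2 -2.05, Nudt3 -1.77, Pim1 -1.32, Pla2g12a -2.48, Ppia -0.86, Ptges3 -1.08, Rnf166 -2.50, Smim10l1 -0.36, Smim14 -2.41, Thra -1.40. P23 at 2 h: 4632404H12Rik -1.40, Atxn7l1 -2.22, B4galt5 -0.37, Ccdc115 -2.95, Ciao2a -2.71, Cisd2 -0.24, Dlg4 -0.69, Gm12693 -2.29, Hlx -2.38, Kif15 -0.43, Kif1b -1.50, Kmt5a -2.19, Lfng -1.66, Meaf6 -2.76, Msi2 -0.76, Nsa2 -2.67, Nudt3 -2.63, Pard6b -0.80, Pim1 -2.68, Pla2g12a -2.84, Ppia -1.88, Ptges3 -1.38, Rnf166 -2.91, Smim10l1 -0.76, Smim14 -2.91, Thra -2.25. LUC at 0 h: Kif1b -2.51, Kif13a -3.03, Ptges3 -1.89, Ppia -2.35, mt-Nd4 -0.23, 4632404H12Rik -0.68, B4galt5 -0.70, Dlg4 -0.69, Pard6b -0.78, Cisd2 -1.15, Pim1 -2.41. LUC at 2 h: Kif1b -2.97, Ptges3 -1.96, Ppia -2.46, mt-Nd4 -0.67, 4632404H12Rik -1.90, B4galt5 -1.04, Dlg4 -1.77, Pard6b -1.05, Cisd2 -0.69, Pim1 -2.99, E2f5 -2.30. The change of Kif15 was -0.16 at equal depth, and that of Ptges3 0.14 with an equal median, 0.33 with TMM, 0.028 with 13 libraries, 0.042 with the replicate block, 0.076 without input and from -0.065 to 0.17 on leaving out single libraries (0.17 without P23 0 h replicate 1). Without input the changes of Pim1 and Pard6b were 3.36 and 0.12. With joined inputs Pim1 was at -2.02 at 0 h and E2f5 at 0.058 at 2 h. On leaving out single libraries, E2f5 with P23 at 2 h ranged from -0.065 to 0.024 (without P23 2 h replicate 1) and Cd101 from -0.33 to 0.021 (without P23 2 h replicate 3). With LUC, Kif13a ranged from -0.0070 to 0.070 at 0 h (below 0 without LUC 0 h replicate 1 or 2) and from -0.73 to 0.51 at 2 h (0.51 without LUC 2 h replicate 2), and Kif1b from -0.15 (without LUC 2 h replicate 1) to 0.53 at 2 h.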
